A study of Mus musculus with 18 samples.

Results

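The genes described here encode 3 Janus kinases (Jak1, Jak2 and Jak3) and 4 signal transducers and activators of transcription (Stat3, Stat4, Stat5a and Stat5b). Every ATAC-seq peak whose deposited gene symbol named one of them was taken, which gave 68 of 61224 peaks. Jak1 on chromosome 4 had 25 peaks, Jak2 on chromosome 19 had 3, Jak3 on chromosome 8 had 2 and Stat4 on chromosome 1 had 14. Stat5b, Stat5a and Stat3, which lie side by side on chromosome 11, had 12, 3 and 9. By the deposited classes, 46 of the peaks were intronic, 15 were promoter peaks, 5 were exonic, 1 lay in a 5' UTR and 1 flanked a gene. All 68 passed the filter on low counts, as did all 61224 peaks. Of the Stat4 peaks, 2 also carried the symbol Gm28177.

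ATAC-seq, in which the transposase Tn5 cuts and tags open chromatin, had been run on 18 libraries of 10000 sorted C57BL/6 mouse cells each. The 9 mPTCL libraries are murine peripheral T-cell lymphomas that grew in CD3KO recipients given p53KO T cells, and they were sorted from the liver by markers that the labels do not name. The normal cells were WT, with 3 libraries per group. T cells were CD3+ thy1+ and came from the spleen, NK cells were CD27- CD11b+ and came from the spleen, and NKT cells, CD3+ CD1dTet(alpha Gal Cer)+, came from the liver, although their titles carry the abbreviation Sp. Lymphoma libraries thus differ from every normal group in genotype and from T and NK cells also in tissue, while the markers of their gate are not given, and these cannot be told apart. Neither separate animals within a normal group nor the number of recipients behind the lymphomas is given, so the p-values measure only the spread between these samples, which may be technical.

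Cytokine receptors of this pathway have no kinase of their own. Janus kinases bound to the receptor tails phosphorylate them when a cytokine arrives, and STAT proteins that dock there are phosphorylated in turn, pair up and bind DNA in the nucleus. In lymphocytes JAK1 and JAK3 serve the receptors for IL-2, IL-7 and IL-15, which act mostly through STAT5A and STAT5B, whereas IL-12 signals through JAK2 and STAT4 and IL-6 through STAT3.

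Accessibility is given as CPM, the count scaled to a common total, on the TMM-scaled library size, which evens out libraries on the assumption that most peaks do not differ. Each lymphoma library had 670358 to 4844441 counts in peaks, each NK library 417107 to 596601, each T library 979441 to 2358023 and each NKT library 1433904 to 9097014. Between 7 and 16 of the 68 peaks had no count in an NK library, against 0 to 10 in the others, so differences at weak peaks are least precise for NK cells. The labels were checked on marker genes. Cd3e, a subunit of the T-cell receptor complex, averaged 28.9 CPM over the lymphomas, and 34.3, 59.0 and 4.84 CPM over T, NKT and NK libraries. Ncr1, an NK receptor, averaged 15.6, 2.36, 0.505 and 28.1 CPM in the same order. Other markers did not separate the groups in this way: Cd5 averaged 15.8, 61.0, 31.8 and 16.5 CPM, Cd6 30.3, 76.2, 81.3 and 26.2, and the NKT-cell factor gene Zbtb16 11.3, 15.0, 58.1 and 68.2. The 7 T-cell markers summed to 414 to 689.6, 642 to 749, 842 to 930.3 and 345 to 469.7 CPM, so lymphomas overlapped T and NK libraries. The 5 NKT markers summed to 309.6 to 421, 433 to 460.1, 740.3 to 802 and 386 to 448 CPM in that order. Summed over the 4 measured of 7 B-cell markers, lymphoma libraries held 118 to 229 CPM, T libraries 64.2 to 83.1, NKT libraries 42.9 to 53.1 and NK libraries 121 to 176. G6pc, the 1 measured of 6 hepatocyte markers, held 13.6 to 68.3, 2.71 to 7.14, 2.64 to 5.81 and 8.20 to 47.4 CPM in that order. The 4 measured of 8 myeloid markers held 86.8 to 137, 48.8 to 64.3, 48.8 to 58.9 and 96.5 to 152 CPM, and the 5 measured of 6 NK markers 145 to 234, 54.2 to 101, 52.8 to 66.2 and 180.2 to 226 CPM. The 4 measured of 6 endothelial and stromal markers held 111 to 229.6, 134 to 174, 95.7 to 109.8 and 114 to 245 CPM, and the 4 measured of 5 erythroid markers 45.0 to 78.1, 30.7 to 62.2, 38.9 to 51.8 and 32.3 to 41.0 CPM. No measured marker of these lists was at 0 in any group. The part of other cells in the results was not tested, and fewer cells with an open site and less opening per cell cannot be told apart in such bulk libraries.

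The promoters behind the main contrasts are shown as the 250 bases before each RefSeq start, from RefSeq on GRCm38.p6, written in the direction of transcription. Capitals mark GGAA or its reverse complement TTCC, the core of ETS-factor sites. The Stat5b windows are given together because the peak over the inner start differed between lymphomas and NKT cells whereas the peak over the outer start did not pass the test. Stat5a, Stat4, Jak2 and Jak1 follow because the strongest promoter peak of each was called lower in lymphomas against NKT cells.

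Stat5b inner start, chr11:100822571-100822820, minus strand: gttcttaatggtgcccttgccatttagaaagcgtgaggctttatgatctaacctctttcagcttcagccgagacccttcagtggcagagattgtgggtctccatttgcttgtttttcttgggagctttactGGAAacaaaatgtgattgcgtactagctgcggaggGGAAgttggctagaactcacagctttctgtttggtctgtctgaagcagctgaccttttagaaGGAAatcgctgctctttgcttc
Stat5b outer start, chr11:100850582-100850831, minus strand: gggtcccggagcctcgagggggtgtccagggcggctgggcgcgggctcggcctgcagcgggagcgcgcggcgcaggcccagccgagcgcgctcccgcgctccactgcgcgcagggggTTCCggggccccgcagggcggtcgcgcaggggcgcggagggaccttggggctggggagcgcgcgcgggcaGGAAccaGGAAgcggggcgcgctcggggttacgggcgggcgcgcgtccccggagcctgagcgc
Stat5a, chr11:100860234-100860483, plus strand: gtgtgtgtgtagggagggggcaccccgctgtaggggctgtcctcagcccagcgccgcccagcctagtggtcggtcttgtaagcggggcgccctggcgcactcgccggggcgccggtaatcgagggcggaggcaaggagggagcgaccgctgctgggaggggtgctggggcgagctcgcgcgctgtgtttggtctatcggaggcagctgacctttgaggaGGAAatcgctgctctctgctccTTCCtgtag
Stat4, chr1:52007990-52008239, plus strand: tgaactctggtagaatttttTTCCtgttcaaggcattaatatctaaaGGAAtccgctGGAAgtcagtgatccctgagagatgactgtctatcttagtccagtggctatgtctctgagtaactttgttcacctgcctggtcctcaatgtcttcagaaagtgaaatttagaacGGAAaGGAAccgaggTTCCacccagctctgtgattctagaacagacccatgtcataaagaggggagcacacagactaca
Jak2, chr19:29251553-29251802, plus strand: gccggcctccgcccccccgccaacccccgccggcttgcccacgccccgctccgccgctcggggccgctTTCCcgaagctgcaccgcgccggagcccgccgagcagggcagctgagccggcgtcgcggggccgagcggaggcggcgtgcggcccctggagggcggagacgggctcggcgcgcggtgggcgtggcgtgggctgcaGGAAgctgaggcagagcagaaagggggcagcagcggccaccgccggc
Jak1, chr4:101265224-101265473, minus strand: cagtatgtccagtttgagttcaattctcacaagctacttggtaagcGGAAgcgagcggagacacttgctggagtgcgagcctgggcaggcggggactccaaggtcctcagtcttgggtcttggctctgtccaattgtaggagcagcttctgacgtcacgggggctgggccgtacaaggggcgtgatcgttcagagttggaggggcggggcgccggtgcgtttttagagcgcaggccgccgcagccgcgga

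These windows held 3, 3, 2, 6, 2 and 1 copies of the capitals in the order shown, against a median of 3 over all 32851 RefSeq windows of the same 250 bases, of which 93.4% held at least 1. The STAT element TTCNNNGAA, which reads the same on both strands and shares bases with GGAA where its last N is G, was in none of the 10 windows of the 7 genes and in 7.02% of all windows. The outer Stat5b and the Jak2 windows were 82.0% and 80.8% G and C, the inner Stat5b and Stat4 windows 46.4% and 44.0%. The inner Stat5b and the Stat5a windows matched at 45 of 50 bases (90.0%) over their closest ungapped stretch, which begins 57 and 66 bases before the respective starts. The outer Stat5b window matched Stat5a at 31 of 50 bases (62.0%). The longest identical run shared by the Stat5a and inner Stat5b windows, in the direction shown, was 16 bases. A longer read within them could thus not match both exactly in that direction. How the authors' alignment treated reads that fit both genes with mismatches is not given in the sources used here. Peak bases outside the windows were not compared, so values of the Stat5a promoter and inner Stat5b peaks carry that uncertainty.

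Summed over each gene's peaks, the lymphomas were less accessible than NKT cells at Stat4, Jak2 and Stat5b. Against T cells they were lower at Jak2 and higher at Stat5a, and against NK cells again lower at Jak2 and higher at Stat5a. These are 3 of 7 genes called against NKT cells, 2 of 7 against T and 2 of 7 against NK cells, at an adjusted p below 0.05 in edgeR's quasi-likelihood test. Of all 20315 genes tested, 45.6%, 30.9% and 21.5% were called in these comparisons, so the shares of Jak and Stat genes are near the background. Jak1, Jak3 and Stat3 did not pass the test in any of these comparisons.

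**Figure D1:**
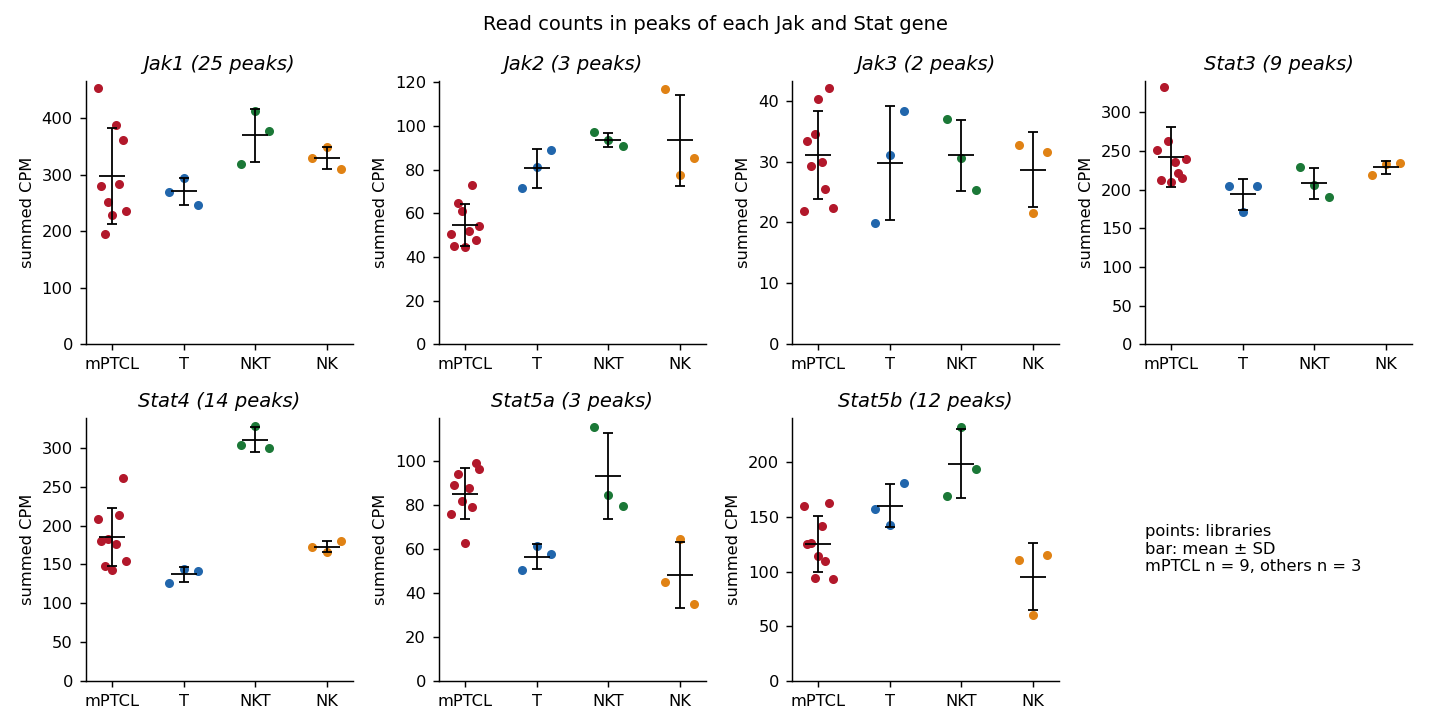
Summed CPM (y axis) over all peaks of each gene for the 9 mPTCL, 3 T, 3 NKT and 3 NK libraries (points), with the group mean and SD (bar); every axis starts at 0. The Jak2 values of the lymphomas, 44.7 to 72.7 CPM, lie below all NKT and NK libraries, and the Stat4 values of the NKT libraries, 300.2 to 329 CPM, lie above all others.

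By peak, the lymphomas had 5 of the 68 higher and 20 lower against NKT cells, with 42.7% of all 61224 peaks called, 23.4% higher and 19.3% lower. Against T cells 3 were higher and 7 lower, where 19.7% of all peaks were called, 8.38% higher and 11.4% lower. Against NK cells 6 were higher and 1 lower, where 9.84% were called, 6.06% higher and 3.78% lower. The median log2 difference of the 68 peaks was -0.39, 0.17 and 0.19 in these comparisons, beside 0.27, 0.26 and 0.30 over all peaks. The lymphomas did not overlap the other group at 18, 9 and 7 of the 68 peaks, where 29.3%, 17.1% and 9.65% of all peaks did not overlap. Scaling changed the balance of directions: with DESeq2's size factors (RLE) the counts were 9 higher and 12 lower against NKT, 8 and 6 against T, and 5 and 2 against NK cells. With unscaled library totals they were 8 and 15, 5 and 6, and 5 and 1. RLE moved the median of all genes by 0.13 and that of all peaks by 0.47 against NKT cells, and library totals moved them by 0.11 and 0.37.

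The size of a difference depended on how strong the peak was. When all peaks were ranked by mean level into 10 classes, the median log2 difference to NKT cells ran from 2.79 in the weakest class to -0.79 in the strongest, from 1.77 to -0.56 against T cells, and from 0.90 to -0.16 against NK cells. The strongest promoter peaks of Jak1, Jak2, Stat3 and Stat5a lay in the strongest class. Read against this, a Jak1 promoter difference of -0.80 to NKT cells is close to the median of its class (-0.79), whereas the Stat5b differences below -2 lie far from the medians of theirs (0.76, 0.42 and -0.52 in classes 4, 5 and 8). The alternative called loess here joins cyclic loess scaling, which removes a trend with level, to a limma test. That test works on log2 CPM (prior count of 2) in place of counts. The parts of scaling and test in its changes were not separated. It left 9 of the 25 peak calls against NKT cells and turned the direction of 1. It left 8 of 10 calls against T and 7 of 7 against NK cells.

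**Figure D2:**
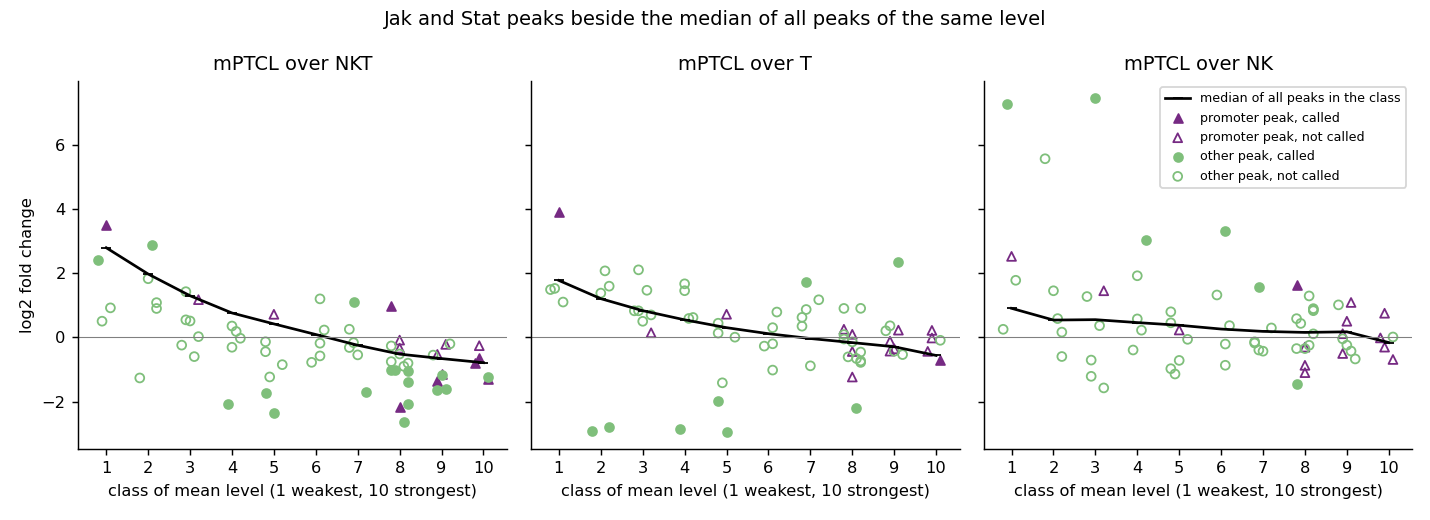
Log2 fold change of the 68 Jak and Stat peaks (y axis) by class of mean level over all peaks (x axis, 1 weakest to 10 strongest), for promoter and other peaks, filled where called; the line joins the median of all peaks in each class. The line falls from 2.79 to -0.79 over NKT, and called Stat5b peaks in classes 4 to 8 lie well under it; the fitted values above 7 over NK cells belong to peaks with 0 counts in all NK libraries and are no measure of size.

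Stat5b, one of the STAT5 pair that relays IL-2, IL-7 and IL-15 signals, had 9 peaks outside its promoters. In edgeR, lymphoma counts were lower at 4 of them against NKT cells and at 4 against T cells, 1 was higher against NKT cells, and 0 passed against NK cells, with 1 at an unadjusted p below 0.05. Its summed level had a lowest, median and highest lymphoma value of 92.9, 125 and 163 CPM, and the libraries 1 to 3 of T cells had 157, 142 and 181, of NKT cells 169.6, 232 and 194, and of NK cells 111, 60.3 and 115 CPM. All lymphomas lay below all NKT libraries and overlapped T and NK cells. The difference to NKT cells was -0.67 ± 0.19 log2 units (SE, adjusted p = 0.00556, edgeR), to T cells -0.36 ± 0.20 (0.154) and to NK cells 0.38 ± 0.22 (0.231). The first of these did not pass without NKT 2 (-0.54, adjusted p = 0.0646) or with loess (-0.41, 0.134). Nor did it pass in the smaller of the 2 deposited peak tables (-0.50, 0.0515) or over promoter peaks alone (-0.20, 0.521).

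The called lower values lay at peaks inside the gene and over its inner start. At the intronic peak chr11:100824028-100824528, the lymphomas had 1.33, 6.22 and 13.9 CPM (lowest, median, highest), with 30.9, 22.5 and 34.1 CPM in T, 30.4, 49.0 and 39.0 in NKT and 12.4, 4.23 and 6.34 in NK libraries. Every lymphoma lay below every T and NKT library, and lymphomas and NK cells overlapped. The differences were -2.63 ± 0.42 to NKT (adjusted p = 1.74e-05, edgeR), -2.18 ± 0.44 to T (0.000632) and -0.25 ± 0.64 to NK cells (0.856).

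Next to it, the promoter peak chr11:100822235-100822735 over the inner start had 0, 7.96 and 15.1 CPM in the lymphomas (lowest, median, highest) and means of 19.2 ± 13.9 in T, 38.1 ± 4.19 in NKT and 18.5 ± 12.8 in NK libraries (SD, n = 3 each). Its difference to NKT cells was -2.17 ± 0.46 (adjusted p = 0.000526, edgeR), without overlap, and those to T (-1.23 ± 0.50, 0.0763) and NK cells (-1.10 ± 0.59, 0.248) did not pass. The outer promoter peak chr11:100850265-100850765 had a lowest, median and highest lymphoma value of 16.6, 26.4 and 61.3 CPM, and 17.0, 21.6 and 43.0 in T, 40.8, 36.9 and 37.0 in NKT and 24.9, 12.7 and 9.51 in NK libraries. Here the lymphomas overlapped all groups, and the differences were -0.22 ± 0.32 (adjusted p = 0.599, edgeR), 0.23 ± 0.35 (0.671) and 1.09 ± 0.44 (0.107) to NKT, T and NK cells.

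Further intronic peaks between the 2 Stat5b starts were open in T cells and weak in the lymphomas. At chr11:100848153-100848653 the lymphomas had 0.185, 1.72 and 12.5 CPM (lowest, median, highest), T cells 33.0, 19.0 and 9.81, NKT cells 9.61, 17.1 and 12.9, and NK cells 4.15, 0 and 7.92. At chr11:100845875-100846375 they had 0, 3.16 and 5.74 CPM, T cells 19.2, 21.6 and 18.2, NKT cells 3.20, 14.7 and 15.1, and NK cells 0, 0 and 9.51. Only the T libraries of the latter peak were all separate from all lymphomas. The differences to T cells were -2.95 ± 0.63 (adjusted p = 0.00119, edgeR) and -2.84 ± 0.59 (0.000829), and those to NKT cells -2.36 ± 0.61 (0.00328) and -2.06 ± 0.57 (0.00531). The call of the latter peak against NKT cells did not pass without NKT 2 or without NKT 3 (0.0536 and 0.0535).

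The peak chr11:100842072-100842572, also intronic, had 0, 1.43 and 6.86 CPM in the lymphomas, 14.9, 15.6 and 21.0 in T, 0, 7.43 and 7.67 in NKT and no count in all 3 NK libraries. T cells stood above every other library. The lymphomas differed from T cells by -2.91 ± 0.71 (adjusted p = 0.00376, edgeR) and from NKT cells by -1.26 ± 0.72 (0.148). Against a floor of 3 counts over the NK group, T cells were at least 9.07-fold higher than NK cells by their mean CPM (9.61-fold by pooled counts). The intronic peak chr11:100804359-100804859 was likewise lower than in NKT cells (-1.04 ± 0.34, adjusted p = 0.0159, edgeR), but not with RLE scaling (-0.58, 0.161) or loess (-0.52, 0.472), with library totals or DESeq2, or without T 1, T 3, NKT 2 or NKT 3.

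A flanking peak before the outer start, chr11:100852500-100853000, was among the weakest. The lymphomas had 1.86, 5.10 and 9.63 CPM, T cells 2.13, 0 and 3.27, NKT cells 1.60, 0.758 and 0.959, and NK cells 0, 0 and 12.7. It was higher than in NKT cells by 2.40 ± 0.90 (adjusted p = 0.0315, edgeR), a size close to the median of its level class, and 0.05 with loess (0.977). Leaving out NKT 2 or NKT 3 (0.136 and 0.113) or scaling within chromosome 11 (2.11, 0.0538) also ended the call. In all, 1 Stat5b peak was called higher and 5 lower than in NKT cells, 4 lower than in T cells, and 0 of 12 were called against NK cells, where 2 had an unadjusted p below 0.05.

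**Figure D3:**
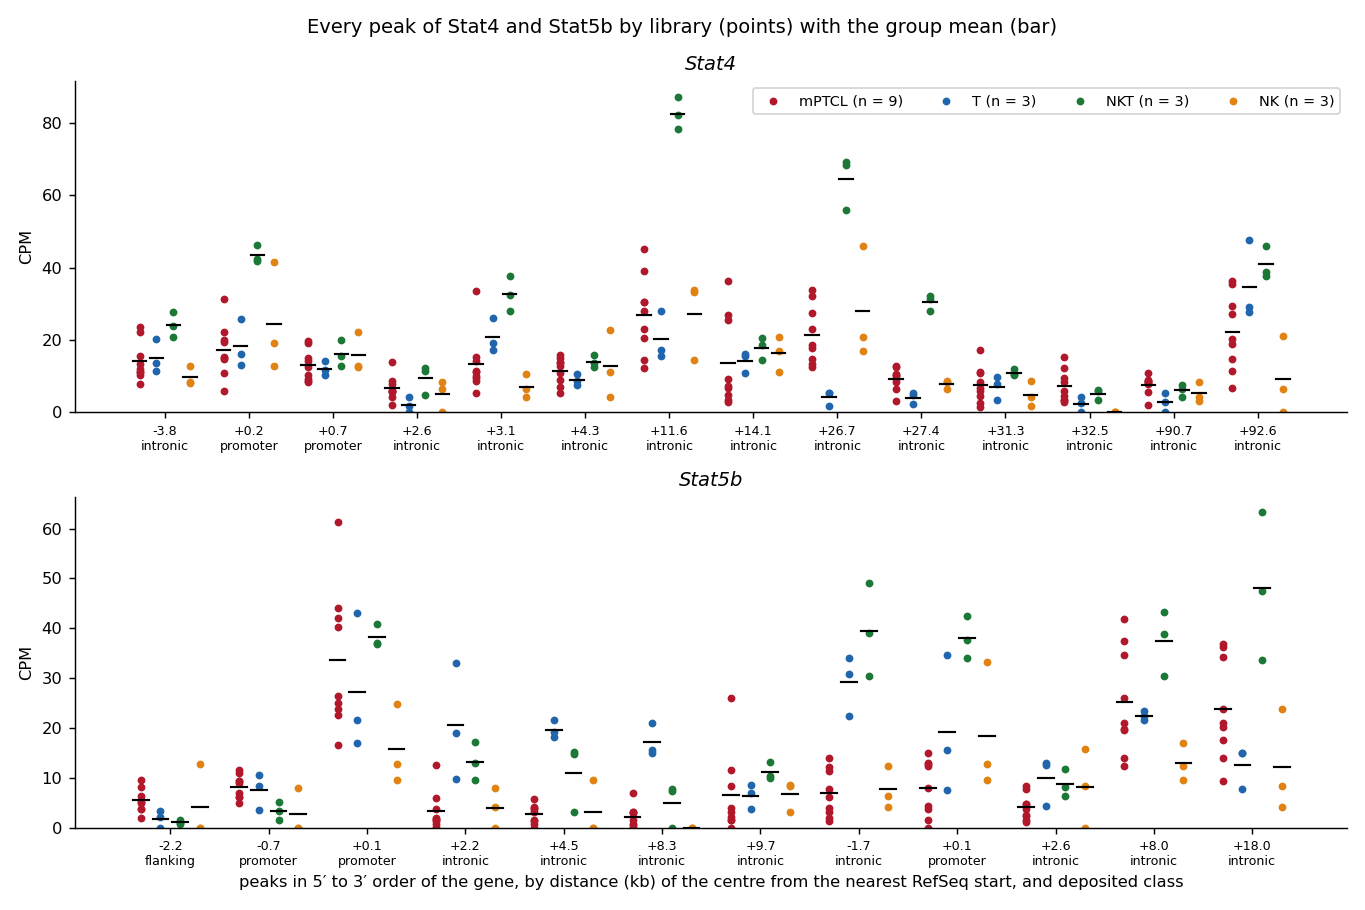
CPM (y axis) at each of the 14 Stat4 and 12 Stat5b peaks, in 5′ to 3′ order of the gene and marked with the distance in kb of the peak centre from the nearest RefSeq start, for all 18 libraries (points) with group means (bars). Stat5b peaks from 2.2 to 8.3 kb behind the outer start are high in T cells and low in lymphomas, and the Stat4 peaks 11.6 and 26.7 kb behind the start are highest in NKT cells.

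Stat5a, the other STAT5 gene, starts close to Stat5b in the opposite direction. Its sums had a lowest, median and highest lymphoma value of 62.7, 87.7 and 99.2 CPM, with 50.6, 61.5 and 57.5 in T, 116, 84.4 and 79.5 in NKT and 45.1, 64.6 and 34.8 in NK libraries. All lymphomas lay above all T libraries and overlapped NKT and NK cells. The differences were 0.58 ± 0.20 to T (adjusted p = 0.0288, edgeR), 0.83 ± 0.23 to NK (0.0106) and -0.13 ± 0.18 to NKT cells (0.59). The call against T cells did not pass when any 1 of the 3 T libraries was left out (adjusted p = 0.0634 to 0.127), and that against NK cells did not pass without NK 3 (0.101).

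At the Stat5a promoter peak chr11:100860193-100860693 the lymphomas had 52.8, 71.2 and 85.0 CPM (lowest, median, highest), T cells 51.1, 60.5 and 67.3, NKT cells 125, 105 and 101, and NK cells 45.6, 55.0 and 25.4. The NKT libraries stood above all others. The difference to NKT cells was -0.66 ± 0.21 (adjusted p = 0.013, edgeR). It did not pass with RLE (-0.22, 0.391), library totals (-0.30, 0.233) and DESeq2 (-0.21, 0.328), without NKT 1 (-0.35, 0.269), or without NK 1 or any 1 T library (-0.47, 0.0589 to 0.0753), and it turned to 0.10 with loess (0.806).

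Behind the promoter, the 5' UTR peak chr11:100860861-100861361 had 4.59, 8.48 and 12.1 CPM in the lymphomas, 6.39, 7.78 and 4.20 in T, 11.2, 4.85 and 3.29 in NKT and no count in any NK library. The lymphomas were at least 4.38-fold higher than NK cells by pooled counts (4.54-fold by their mean CPM), against the floor of 3 counts over the NK group (adjusted p = 0.00578, edgeR). The exonic peak chr11:100879721-100880221 had 4.90, 9.16 and 17.9 CPM in the lymphomas, 2.13, 5.19 and 0 in T, 4.0, 0.303 and 0.959 in NKT and 0, 8.47 and 9.51 in NK libraries. It was higher than in NKT cells by 2.87 ± 0.81 (adjusted p = 0.00568, edgeR), 1.21 with loess (0.305), and did not pass without NKT 2 (0.0721) or NKT 3 (0.0508).

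Stat3, which serves IL-6, IL-10 and IL-21 signals, had sums that passed no test against a normal group on the scale of all chromosomes. Lymphoma values of 210 CPM at the lowest, 236 at the median and 332 at the highest compared with 205, 171 and 205 in T, 230, 205 and 190 in NKT and 219, 233 and 234 in NK libraries. All lymphomas lay above all T libraries, and they overlapped NKT and NK cells. The differences were 0.22 ± 0.16 to NKT (adjusted p = 0.269, edgeR), 0.32 ± 0.17 to T (0.137) and 0.08 ± 0.17 to NK cells (0.765). DESeq2 called the first 2 (0.35, adjusted p = 0.0327, and 0.38, 0.0336), and loess (0.46, 0.0251) and the smaller table (0.51, 0.0271) called the one to NKT cells.

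The main promoter of Stat3, chr11:100939376-100939876, was the strongest of all member promoters. The lymphomas had 111, 136 and 219 CPM there, T cells 159, 114 and 157, NKT cells 194, 159 and 156, and NK cells 176, 186 and 162. All groups overlapped the lymphomas, and the differences of -0.26 ± 0.20 to NKT, -0.02 ± 0.20 to T and -0.30 ± 0.21 to NK cells did not pass (adjusted p = 0.282, 0.954 and 0.377, edgeR). The peak upstream of it, chr11:100939910-100940410, averaged 17.1 ± 4.0 CPM in the lymphomas (SD, n = 9) and 37.1 ± 3.77 in NKT cells (n = 3), a difference of -1.13 ± 0.30 (adjusted p = 0.00361, edgeR) that did not pass with RLE (-0.68, 0.06) or loess (-0.59, 0.246).

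Inside Stat3, 4 peaks were called higher in the lymphomas against at least 1 normal group. The exonic peak chr11:100904680-100905180 averaged 25 ± 4.94 CPM in them (SD, n = 9), against 7.50 ± 1.29 in T, 11.5 ± 2.54 in NKT and 7.72 ± 10.0 in NK libraries (n = 3 each), and no lymphoma overlapped any group. The differences were 1.73 ± 0.46 to T (adjusted p = 0.00762, edgeR), 1.10 ± 0.40 to NKT (0.0287) and 1.57 ± 0.52 to NK cells (0.0461). Of these, the calls against NKT and NK cells did not pass with scaling within chromosome 11 (0.106 and 0.194), without any 1 NKT library (0.0506 to 0.122), or without NK 1 or NK 2 (0.128 and 0.211), respectively. With loess the call against NKT cells was lost too (1.405, adjusted p = 0.0924). The one against NK cells was also lost, at 0.0503 to 0.0652, with RLE, with library totals, with the 2 groups alone, and without NKT 2 or NKT 3.

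The weak peak chr11:100905446-100905946, classed as a promoter although it lies 33.8 kb inside the gene from the RefSeq start, had 2.79, 6.38 and 12 CPM in the lymphomas. T cells had 0, 0 and 0.934, NKT cells 0.801, 0.152 and 0.959, and NK cells 0, 0 and 3.17 CPM. The lymphomas lay above all T and NKT libraries. With 2 counts in all T libraries, the ratio of lymphomas to T cells was 16.1 with an interval of 4.41 to 134 (95%, exact binomial), which covers counting error only since PCR copies are not independent molecules. The edgeR call of this peak against T cells was lost with loess (1.66, adjusted p = 0.0728). The fitted difference to NKT cells was 3.48 ± 0.89 (adjusted p = 0.00275, edgeR) but 0.58 with loess (0.607), and its level class had a median of 2.79. The third, chr11:100893488-100893988, also classed as a promoter, was higher than in NKT (0.98 ± 0.39, adjusted p = 0.0425, edgeR) and NK cells (1.64 ± 0.52, 0.0367). Both calls were lost within chromosome 11 (0.65, adjusted p = 0.14, and 1.19, 0.13), the former also without NKT 2 or NKT 3 (0.123 and 0.206) and the latter without NK 2 or NK 3 (0.168 and 0.0863).

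Close to the 3' end of Stat3, the intronic peak chr11:100891405-100891905 marked T cells. They had 19.2, 17.3 and 16.4 CPM, whereas the lymphomas had 0, 1.96 and 5.10, NKT cells 0, 1.52 and 1.78 and NK cells 8.29, 0 and 3.17. No library of another group reached the T cells. The lymphomas differed from T cells by -2.79 ± 0.69 (adjusted p = 0.00441, edgeR) and NKT cells by -3.69 ± 1.0 (0.0221). At the fourth peak with higher lymphoma counts, the intronic chr11:100931652-100932152, the lymphomas had 8.03, 11.1 and 25.2 CPM, T cells 10.7, 12.1 and 9.34, NKT cells 10.4, 25.9 and 21.0, and NK cells 4.15, 0 and 0. With 2 counts in all NK libraries, lymphomas were 10.7-fold above NK cells (counting interval 2.94 to 88.7), and the call (adjusted p = 0.00976, edgeR) did not pass without NK 2 (0.057) or NK 3 (0.0624).

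Chromosome 11 as a whole took a larger share of counts in the lymphomas. It held 11.2% ± 1.26 of counts in peaks (SD, n = 9, 9.30% to 13.6%), against 8.09% ± 0.642 in T, 8.21% ± 0.227 in NKT and 8.03% ± 0.838 in NK libraries (n = 3 each). The median of the 1737 other genes on the chromosome was 0.49 log2 units higher in lymphomas than in NKT cells, 0.58 than in T and 0.65 than in NK cells. Stat3 exceeded 34.3%, 32.6% and 17.7% of these genes in the 3 comparisons, Stat5a 13.1%, 49.7% and 61.9%, and Stat5b 2.25%, 3.68% and 32.5%. Against NKT and T cells, Stat5b was thus among the lowest genes of its chromosome.

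**Figure D4:**
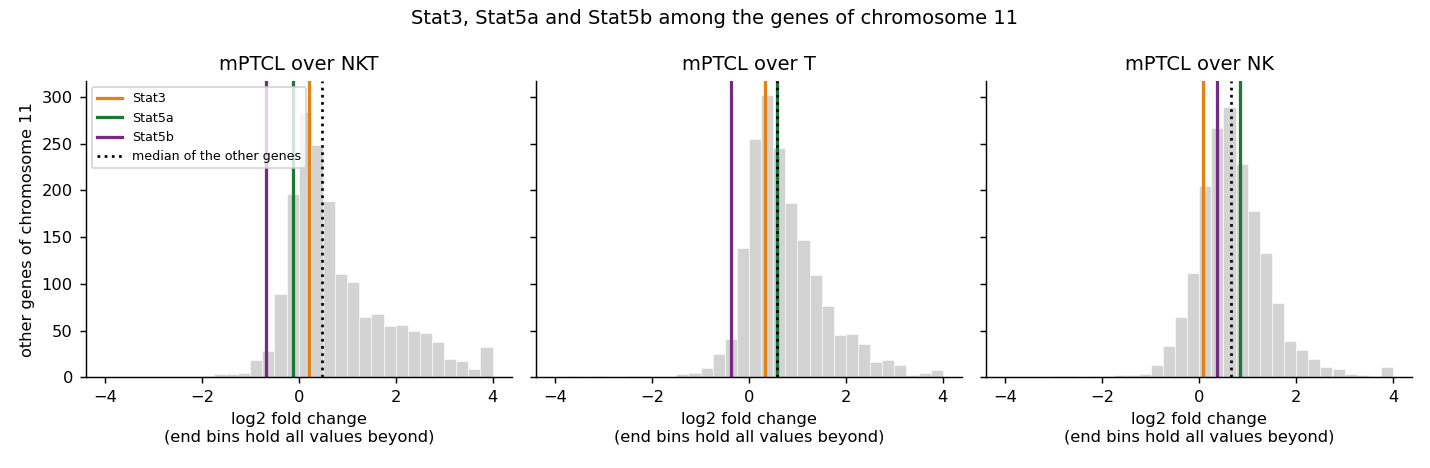
Number of the 1737 other chromosome 11 genes (y axis) by log2 fold change of mPTCL over each normal group (x axis, bins of 0.25, the end bins holding all values beyond), with lines at Stat3, Stat5a and Stat5b. Stat5b, at -0.67 and -0.36, lies left of nearly all genes over NKT and T cells, while Stat3, at 0.22, 0.32 and 0.08, lies left of the median in all 3 panels.

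Scaled within each chromosome, so that differences are relative to chromosome 11, Stat5b was lower by -1.13 ± 0.17 against NKT cells (adjusted p = 2.36e-05, edgeR) and by -0.87 ± 0.17 against T cells (0.000863), and it differed by -0.19 ± 0.20 from NK cells (0.568). Stat5a was lower than in NKT cells (-0.58 ± 0.16, adjusted p = 0.00611, edgeR), and its differences to T (0.07 ± 0.18, 0.809) and NK cells (0.28 ± 0.21, 0.395) no longer passed. Stat3 was lower than in NK cells (-0.48 ± 0.14, adjusted p = 0.0174, edgeR), with -0.24 ± 0.13 (0.138) to NKT and -0.18 ± 0.13 (0.315) to T cells. On this scale the Stat5b sums of the lymphomas ran from 79.3 to 134 CPM, under all T libraries (181 to 205) and all NKT libraries (195 to 259).

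On this scale the median over chromosome 11 peaks was 0.425, 0.298 and 0.292 against NKT, T and NK cells. A typical peak of the chromosome was thus itself somewhat higher in the lymphomas. Relative to chromosome 11, the lymphomas had 2 of the 24 peaks of the 3 genes higher and 11 lower against NKT cells. Under this scaling 38.9% of all peaks were called there, 21.5% higher and 17.5% lower. The counts were 2 and 7 against T cells (16.8% of all called, 7.32% and 9.49%) and 2 and 1 against NK cells (7.38%, 4.57% and 2.81%). With RLE factors within each chromosome they were 5 and 7, 2 and 6, and 2 and 1, and relative to the 1403 peaks within 10 Mb they were 2 and 11, 1 and 8, and 2 and 1. Peaks of other genes within 250 kb of Stat5b had a median difference of 0.54 to NKT and 0.60 to T cells (51 peaks, all-chromosome scale), while the median over the 12 Stat5b peaks was -1.14 and -0.61. Without NKT 2 the count against NKT cells fell from 13 to 8, and without NK 2 that against NK cells fell from 3 to 1.

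**Figure D5:**
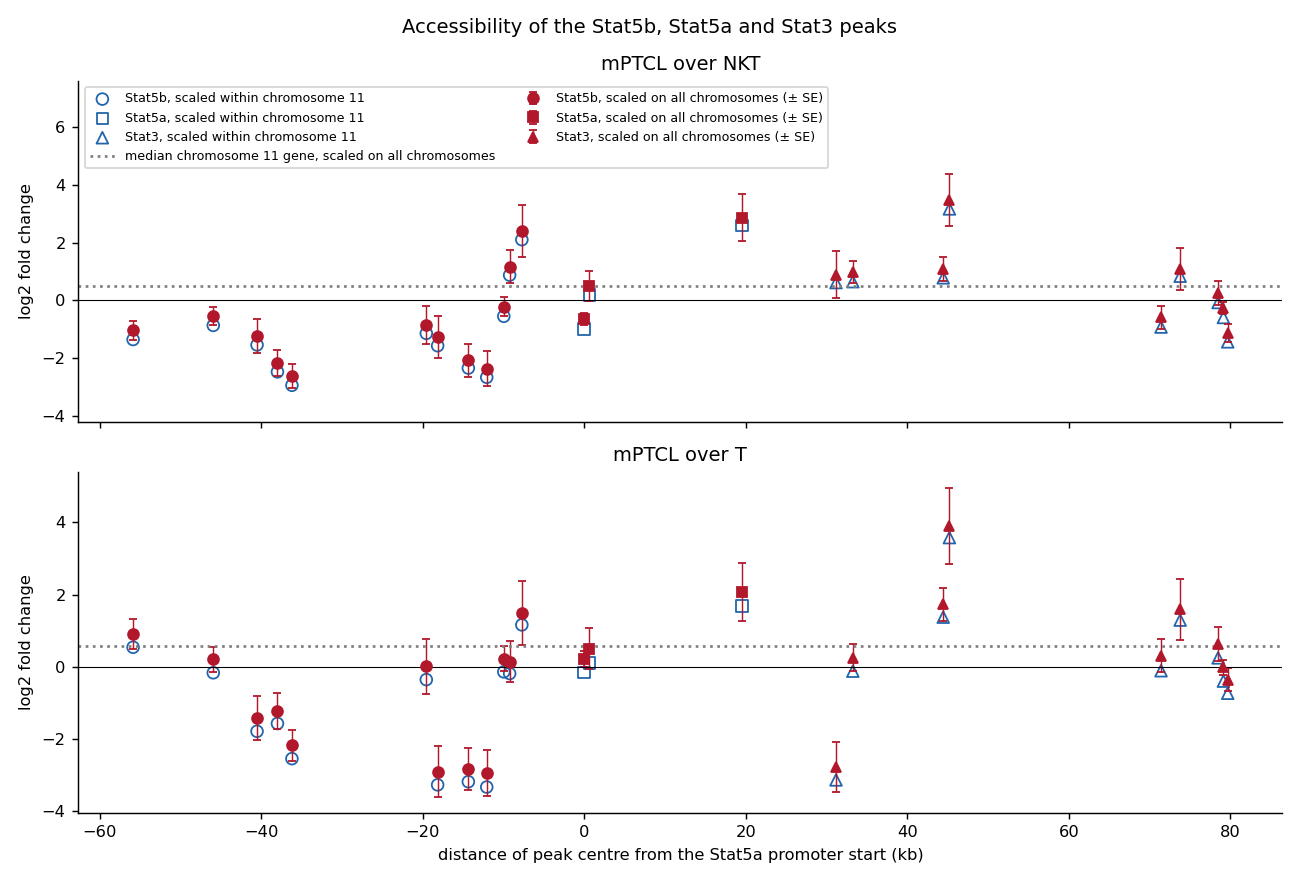
Log2 fold change (y axis) of the 24 Stat5b, Stat5a and Stat3 peaks by distance in kb from the Stat5a promoter start (x axis), scaled on all chromosomes with SE (filled) and within chromosome 11 (open), for mPTCL over NKT and over T cells; the dotted line is the median chromosome 11 gene. Peaks inside Stat5b reach -2.63 over NKT and -2.95 over T, while peaks inside Stat3 reach 3.48 and 3.91.

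Stat4 relays IL-12 signals toward interferon-gamma production. Its sums had a lowest, median and highest lymphoma value of 143, 181 and 261 CPM, with 127, 144 and 142 in T, 304, 329 and 300.2 in NKT and 172, 166 and 180.2 in NK libraries. NKT libraries stood above every other library, and T cells at the low end. The lymphomas were lower than NKT cells by -0.75 ± 0.16 (adjusted p = 0.000801, edgeR) and differed by 0.43 ± 0.18 from T (0.0691) and 0.10 ± 0.18 from NK cells (0.746). The difference to T cells passed within chromosome 1 (0.70, adjusted p = 0.00378). It also passed with RLE, DESeq2, loess and the smaller table (0.47 to 0.60, 0.0153 to 0.0415). The one to NKT cells did not pass over promoter peaks alone (-0.48, 0.134). Within chromosome 1 it shrank to -0.50 ± 0.15 (adjusted p = 0.0113, edgeR). On the all-chromosome scale, other genes of chromosome 1 had a median difference to NKT cells of -0.26. The 13 peaks of other genes within 250 kb had a median of -0.58, with 4 called lower and 1 higher. Within the chromosome that median was -0.17. Whether Stat4 differs from its near surroundings was not tested.

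At the intronic peak chr1:52034682-52035182, NKT, NK and lymphoma libraries were all above T cells. The lymphomas averaged 21.4 ± 8.06 CPM (SD, n = 9, 12.4 to 33.8), T cells 4.06 ± 2.02, NKT cells 64.6 ± 7.39 and NK cells 27.9 ± 15.8 (n = 3 each). The difference was -1.61 ± 0.31 to NKT (adjusted p = 0.000153, edgeR), 2.34 ± 0.46 to T (0.000487) and -0.43 ± 0.38 to NK cells (0.525), and the first of these did not pass with loess (-1.09, 0.0546). The neighbouring peaks chr1:52019569-52020069 and chr1:52035430-52035930 were lower than in NKT cells by -1.64 ± 0.29 and -1.70 ± 0.36 (adjusted p = 6.21e-05 and 0.000508, edgeR), with lymphoma means of 27.0 and 9.20 CPM and NKT means of 82.7 and 30.5. Another, chr1:52011075-52011575, differed from NKT cells by -1.38 ± 0.37 (adjusted p = 0.00404, edgeR), and not without NKT 1 (-1.06, 0.057) or with loess (-1.03, 0.115).

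The Stat4 promoter peak chr1:52008207-52008707 had 5.74, 15.2 and 31.4 CPM in the lymphomas, 16, 13.0 and 25.7 in T, 42.4, 46.4 and 41.8 in NKT and 41.5, 12.7 and 19.0 in NK libraries. It was lower than in NKT cells, without overlap (-1.35 ± 0.34, adjusted p = 0.00241, edgeR), but -0.87 with loess (0.136). The intronic peak chr1:52040455-52040955 had 2.79, 5.74 and 15.2 CPM in the lymphomas, 0, 2.59 and 4.20 in T, 3.20, 6.07 and 5.75 in NKT and no count in any NK library, which puts the lymphomas at least 3.80-fold above NK cells by their mean CPM (4.28-fold by pooled counts) over the floor of 3 counts in the NK group (adjusted p = 0.0201, edgeR). That call did not pass without NK 2 (0.0644) or NK 3 (0.069). In all, 5 of 14 Stat4 peaks were lower than in NKT cells, and 1 each was higher than in T and in NK cells.

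Jak2, a kinase of the IL-12, interferon-gamma and many haematopoietic cytokine receptors, was the one kinase with calls at the gene level. Lymphoma sums of 44.7, 52.0 and 72.7 CPM (lowest, median, highest) compared with 71.4, 81.0 and 89.1 in T, 97.0, 93.4 and 90.6 in NKT and 117, 77.6 and 85.4 in NK libraries. The lymphomas lay below all NKT and NK libraries, and the highest of them just above the lowest T library. The differences were -0.76 ± 0.18 to NKT (adjusted p = 0.00129, edgeR), -0.55 ± 0.18 to T (0.024) and -0.76 ± 0.20 to NK cells (0.00746). The call against T cells was lost within chromosome 19 (-0.32, 0.154), with loess (-0.40, 0.105), and without T 2 or T 3 (0.0772 and 0.133), and that against NK cells without NK 1 (-0.57, 0.0741). In the smaller table the differences to NKT (-0.43, 0.058) and T cells (-0.26, 0.315) did not pass. Within chromosome 19 the differences to NKT and NK cells were -0.49 and -0.74 (adjusted p = 0.0145 and 0.00623, edgeR). On the all-chromosome scale, other genes of chromosome 19 had a median difference to NKT cells of -0.30. The 20 peaks of other genes within 250 kb had a median of -0.43, with 7 called lower and 1 higher. Within the chromosome that median was -0.09. Whether Jak2 differs from its near surroundings was not tested.

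The Jak2 promoter peak chr19:29251382-29251882 had 21.7, 40.4 and 47.6 CPM in the lymphomas, 53.2, 63.1 and 60.2 in T, 95.3, 83.4 and 87.9 in NKT and 56.0, 55.0 and 63.4 in NK libraries. Every lymphoma lay below every normal library. Only the differences to NKT (-1.29 ± 0.22, adjusted p = 4.41e-05, edgeR) and T cells (-0.71 ± 0.24, 0.0316) passed, and -0.69 ± 0.26 to NK cells did not (0.0816). The former was -0.59 with loess (0.0792), and the call against T cells was lost in 12 of the alternatives tried. An exonic peak, chr19:29271090-29271590, averaged 2.99 ± 2.20 CPM in the lymphomas (SD, n = 9), 13.0 ± 4.05 in T and 10.9 ± 1.27 in NKT cells (n = 3 each), differences of -1.99 ± 0.58 and -1.74 ± 0.56 (adjusted p = 0.0149 and 0.0137, edgeR). These calls did not pass without T 2 or T 3 (0.111 and 0.0932), and without any 1 NKT library (0.0525 to 0.0714), respectively, nor in the smaller table (0.0832 and 0.142), and the one to NKT cells did not pass with RLE (0.0627).

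Jak1, used by nearly all cytokine receptors of lymphocytes, varied most among the lymphomas. Its sums were 196, 281 and 453 CPM at the lowest, median and highest, with 270, 295 and 247 in T, 319, 413 and 378 in NKT and 330, 349 and 310 in NK libraries. The lymphomas overlapped all groups, and the differences of -0.32 ± 0.20 to NKT, 0.14 ± 0.21 to T and -0.15 ± 0.21 to NK cells did not pass (adjusted p = 0.19, 0.632 and 0.653, edgeR). Among the lymphomas the SD of log2 CPM was 0.40 for Jak1, above that of 72.1% of genes of similar count, and 0.21 for both Stat3 and Stat5a, above that of 6.81% and 6.13%.

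The Jak1 promoter peak chr4:101264995-101265495 had 33.0, 46.1 and 75.0 CPM in the lymphomas, 56.4, 85.6 and 60.2 in T, 83.3, 88.4 and 88.8 in NKT and 68.4, 42.3 and 41.2 in NK libraries. It was below all NKT libraries (-0.80 ± 0.24, adjusted p = 0.0088, edgeR), but not with RLE (-0.36, 0.212), library totals (-0.45, 0.117), DESeq2 (-0.36, 0.214), the smaller table (-0.20, 0.545) or loess (-0.11, 0.819), or without NKT 1 (-0.62, 0.0905). The intronic peak chr4:101253834-101254334 averaged 9.94 ± 6.70 CPM in the lymphomas (SD, n = 9) and 42.7 ± 4.09 in NKT cells (n = 3), a difference of -2.08 ± 0.40 (adjusted p = 0.000205, edgeR), and it held 14 ± 2.92 in T and 9.15 ± 6.13 in NK cells. The other 4 Jak1 calls against NKT cells were intronic and ran from -1.22 to -1.0, and those at chr4:101182578 and chr4:101254887 were lost in 11 and 12 of 17 alternatives. These 4 peaks lay in level classes 8, 9 and 10, where all intronic peaks had medians of -0.744, -1.008 and -1.057. The values in classes 9 and 10 are thus near the usual difference of intronic peaks at that level.

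At chr4:101176075-101176575, another intronic peak, NK cells were highest, with 38.4 ± 13.0 CPM (SD, n = 3) against 13.8 ± 5.91 in the lymphomas (n = 9), 7.68 ± 1.66 in T and 16.9 ± 2.32 in NKT cells (n = 3 each). The lymphomas were lower than NK cells by -1.44 ± 0.38 (adjusted p = 0.0124, edgeR), a call lost without NK 2 (0.1) or NK 3 (0.0591). The peak chr4:101264268-101264768 had 4.24, 9.72 and 18.7 CPM in the lymphomas, 12.8, 2.59 and 5.61 in T, 9.61, 10.3 and 11.6 in NKT and 0, 0 and 3.17 in NK libraries. With 2 NK counts in all, the ratio of lymphomas to NK cells was 7.33 (counting interval 2.01 to 60.9), and the call (adjusted p = 0.0333, edgeR) was lost without NK 1 (0.095) or NK 2 (0.128) and in DESeq2 (0.0581). Of the 25 Jak1 peaks, 6 were lower than in NKT cells and 0 were called against T cells, where 3 had an unadjusted p below 0.05.

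Jak3, the kinase bound to the common gamma chain of the IL-2 receptor family, did not pass a test anywhere. Its sums were 21.8, 30.0 and 42.1 CPM in the lymphomas, 19.9, 31.1 and 38.3 in T, 37.0, 30.7 and 25.4 in NKT and 32.8, 21.6 and 31.6 in NK libraries, with full overlap. The differences were 0.01 ± 0.25, 0.03 ± 0.26 and 0.10 ± 0.30 to NKT, T and NK cells (adjusted p = 0.976, 0.943 and 0.85, edgeR). Its stronger promoter peak chr8:71676277-71676777 had 17.1, 21.7 and 33.3 CPM in the lymphomas, 19.2, 29.4 and 43.9 in T, 35.2, 36.2 and 30.0 in NKT and 29.0, 16.9 and 19.0 in NK libraries, and differed by -0.53 ± 0.29, -0.43 ± 0.30 and 0.11 ± 0.36 (0.126, 0.309 and 0.883).

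Among the normal cells, Stat4 was the 1 gene of the 7 called between NKT and T cells. It was higher in NKT than in T cells by 1.18 ± 0.21 (adjusted p = 0.00133, edgeR) and lower in NK than in NKT cells by -0.85 ± 0.22 (0.0107). Neither passed over promoter peaks alone (0.82, 0.263, and -0.06, 0.928), and the latter did not pass in the smaller table (-0.63, 0.0816). Stat5a and Stat5b were lower in NK than in NKT cells, by -0.96 ± 0.26 and -1.05 ± 0.26 (adjusted p = 0.0144 and 0.00762, edgeR). These are 3 of 7 genes called between NK and NKT cells (background 14.8%) and 1 between NKT and T cells (4.55%). Between NK and T cells edgeR called 0 of 7 (5.51%), with 1 at an unadjusted p below 0.05, Stat5b at -0.74 ± 0.26, which loess with limma called (-0.78, adjusted p = 0.0433). The Stat5a call between NK and NKT cells was lost without NKT 1 (0.0696) or NK 3 (0.0999), and the Stat5b call without NK 2 (0.0538). These comparisons share libraries, so they are not independent.

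By peak, NK cells had 2 higher and 14 lower than NKT cells, where 17.1% of all peaks were called, 6.85% higher and 10.3% lower. Against T cells NK cells had 2 higher and 2 lower (4.79% of all called, 2.05% and 2.74%), and NKT cells 4 higher and 1 lower (5.19%, 3.46% and 1.73%). These pairs did not overlap at 32, 20 and 29 of the 68 peaks, where 34.6%, 25.5% and 33.6% of all peaks did not. With RLE the NK to NKT count was 3 and 3, and with library totals 3 and 6, while that of NK to T cells was 2 and 1 with both. The Stat4 peak chr1:52034682-52035182 had the clearest order, with NKT above T cells by 3.95 ± 0.50 (adjusted p = 1.1e-05, edgeR) and NK above T cells by 2.77 ± 0.54 (0.00307). Mean log2 CPM was ordered NKT, NK, mPTCL, T for Jak1, with 8.53, 8.37, 8.17 and 8.08, and NKT, NK, T, mPTCL for Jak2, with 6.56, 6.53, 6.34 and 5.77. The order was NKT, mPTCL, NK, T for Stat4 (8.28, 7.52, 7.44 and 7.11), NKT, mPTCL, T, NK for Stat5a (6.53, 6.41, 5.83 and 5.57) and NKT, T, mPTCL, NK for Stat5b (7.63, 7.32, 6.95 and 6.53). For Stat3 the order was mPTCL, NK, NKT, T (7.91, 7.84, 7.70 and 7.6). For Jak3 it was NKT, mPTCL, T, NK (4.97, 4.95, 4.88 and 4.85). Of the neighbours in these orders, those that differed beyond the test were NKT and mPTCL for Stat4, T and mPTCL for Jak2, and mPTCL and T for Stat5a.

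The rest of the pathway was read from lists of genes around these members. Among further Jak and Stat genes, Stat2, which serves interferons, was lower than in NKT cells, by -0.92 ± 0.21 (adjusted p = 0.0011, edgeR), and Tyk2 and Stat6 did not pass. None of these 3 was called against T or NK cells in edgeR. Among the cytokine receptor genes, of which 22 were measured, 4 rose and 5 fell against NKT cells, 5 and 3 against T, and 0 and 4 against NK cells. Over all genes, 45.6%, 30.9% and 21.5% were called in these comparisons, so the counts of the receptors, and those of the inhibitors and targets given next, are near the background. Lifr, the leukaemia inhibitory factor receptor, had the highest value (4.03 ± 0.48 to NKT and 2.11 ± 0.44 to T cells, adjusted p = 1.05e-06 and 0.000813, edgeR). Osmr, its oncostatin M relative, differed by 2.75 ± 0.37 and 1.44 ± 0.36 (5.71e-06 and 0.00365), and Il9r by 2.12 ± 0.50 to NKT cells (0.00153). The IL-7 receptor gene Il7r was lower than in NKT and T cells (-1.84 ± 0.49 and -1.89 ± 0.50, adjusted p = 0.00386 and 0.00608, edgeR). Lifr and Osmr lie on chromosome 15 with Il7r, and within that chromosome Osmr no longer passed against T cells (0.58, 0.174) and Lifr differed from them by 1.25 (0.0238).

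The IL-2 receptor alpha gene Il2ra was lower than in NKT cells (-1.5 ± 0.22, adjusted p = 1.69e-05, edgeR), the IL-6 receptor gene Il6ra lower than in T cells (-1.5 ± 0.28, 0.000291), and Ifngr1, Ifngr2 and Il12rb2 lower than in NK cells (-1.34 ± 0.21, -1.15 ± 0.38 and -0.97 ± 0.22, with 8.66e-05, 0.0288 and 0.00224). Within chromosome 16, Ifngr2 no longer passed (-0.73, 0.138). Of 19 inhibitor genes, which include the SOCS and PIAS families and phosphatases, 5 rose and 4 fell against NKT cells, 3 and 1 against T, and 3 and 0 against NK cells. Sh2b3, the adaptor LNK that restrains JAK2, was higher than in NK cells by 1.26 ± 0.21 (adjusted p = 0.00015, edgeR) and by 0.76 within its chromosome (0.00436), and Pias2 lower than in T cells by -0.77 ± 0.28 (0.0352), though not within its chromosome (-0.51, 0.12). Of 17 measured target genes, 3 rose and 5 fell against NKT cells, 5 and 0 against T, and 3 and 0 against NK cells. Tbx21, which encodes T-bet, was higher than in T and NK cells (1.91 ± 0.22 and 1.2 ± 0.23, adjusted p = 1.63e-06 and 0.000478, edgeR), and by 1.41 and 0.65 within chromosome 11 (4.89e-05 and 0.0433). Myc was higher than in NK cells (1.40 ± 0.25, 0.000263), but not within chromosome 15 (0.71, 0.0622). Bcl2, the survival gene downstream of STAT5, was lower than in NKT cells (-1.33 ± 0.35, adjusted p = 0.00406, edgeR). The list medians were -0.13, -0.25 and -0.13 to NKT cells for receptors, inhibitors and targets, beside 0.06 over all genes.

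Across the 18 libraries, the genes whose log2 CPM followed each member most closely, among 14031 that averaged 50 counts or more and share no peak with it, were named as a description, since libraries share depth and group. They were Cant1, Tmem94 and Acaca for Stat3 (Pearson r = 0.82, 0.81 and 0.80), all on chromosome 11, and 16 of the 20 closest genes of Stat3 lay there, where 9.12% of the genes compared lie. The closest to Stat5a were Il4 and Usp42 (0.90 and 0.89), with 5 of 20 on chromosome 11, and to Stat5b 4930417O13Rik, Chst15 and Eif2s2 (0.90, 0.89 and 0.87), with 0 of 20. Stat4 was followed by Ppp1r16b, Gm2774 and Gm31683 (0.92, 0.88 and 0.88), Jak2 by Dcps, Ccdc151 and Prkcsh (0.94, 0.91 and 0.91), Jak1 by Sipa1l1, Itpk1 and Elmsan1 (0.87, 0.83 and 0.82) and Jak3 by Cstad, Surf1 and Surf2 (0.74, 0.67 and 0.67). Over the 9 lymphomas, the share of counts on a member's chromosome was set against its log2 CPM, 7 relations in all. The strongest was Stat3 with r = 0.68 (permutation p = 0.0489, adjusted 0.342) and rho = 0.43 (p = 0.25, adjusted 0.764), and without the 2 lymphomas farthest from the median share r was -0.15, so it rests on those samples.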

How the data were processed

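ATAC-seq was measured in 18 libraries, 9 lymphomas and 3 each of T, NKT and NK cells. The deposited counts are whole reads per 500 bp peak on mm10, with 61224 peaks on 19 autosomes in the larger table used here, and the deposited log2 values are log2 CPM that the authors scaled by TMM. Per the submitters' processing notes, MACS2 2.1.2, bedtools and edgeR 3.24.3 were used, without their roles. Not given in the sources used here are the aligner, how duplicates and reads with several matches were handled, any Tn5 shift, how peaks were chosen, and whether positions count from 0 or 1. The log2 values recomputed from the counts (prior count of 2) differed from the deposited ones by at most 5e-04. Gene symbols and peak classes are the deposited ones.

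Peak counts, and counts summed per symbol for 20315 genes, were tested in 1 fit of all 18 libraries with edgeR 4.0.16 in R 4.3.3 (TMM, filterByExpr, quasi-likelihood test), with Benjamini-Hochberg adjustment over all features and a threshold of 0.05. SE is the log2 fold change over the square root of F. For values relative to a chromosome, library sizes and TMM factors came from its peaks alone. The biological coefficient of variation was 0.431 for peaks and 0.297 for genes, on 14 residual degrees of freedom. No 2 libraries of a group were copies, since the closest pair had a chi-square per degree of freedom of 2.243. The fits were tested on simulated data. Alternatives were RLE, library totals, DESeq2 1.42.0, cyclic loess with limma 3.58.1, other filters, the smaller table, 2 groups alone and promoter peaks alone. Each normal library was also left out in turn, and a replicate block was fitted to the normal libraries without the lymphomas.

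Every member is accounted for. For the strongest promoter peak of each gene and the 12 called peaks with the largest change, values are given per normal library. The lymphomas are given there by their lowest, median and highest value. From the pathway lists the 3 highest and 3 lowest called genes per lymphoma comparison are named. Other peaks were named after their values were seen. The members and lists were chosen with earlier results of these data known. Some items are not reported here.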

Additional observations from a re-analysis of the deposited data

Results flagged for a closer look

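Among the 9 lymphomas, the highest and lowest library of each of the 7 genes and 68 peaks was set against the others by Dixon's ratio of the gap to the range, which chance exceeds in about 1 group in 20. It was exceeded 5 times, close to what that rate alone would give over these genes and peaks. Summed over its peaks, Stat3 was highest in mPTCL 3, with 332 CPM against 262 in the next library. That library also had the largest chromosome 11 share (13.6%). Scaled within chromosome 11, its Stat3 value was 225 CPM, below the 231 CPM of mPTCL 9. At 2 intronic Stat4 peaks mPTCL 1 was lowest, with 2.94 CPM at chr1:52035430 (next 6.38) and 1.96 CPM at chr1:52098684 (next 5.6). mPTCL 1 was also highest at a Jak1 peak classed as a promoter, chr4:101185102, with 36.8 CPM (10.2 in the next library). At the Jak1 intronic peak chr4:101247202, mPTCL 6 was highest with 26.0 CPM, and the next had 6.97 CPM.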

How the results depend on the processing

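Of 819 gene values under the alternatives, 777 kept their side of the threshold (52 of them changed sign without being called in either setting), 27 lost the call, 14 gained one and 1 changed sign with a call, which was Stat3 against NK cells scaled within its chromosome (-0.48). Of 719 values of called peaks, 599 kept the call, 119 lost it and 1 reversed, the Stat5a promoter against NKT cells with loess (0.10). The cause was not tested. For peaks, the fit without a filter on low counts repeats the main fit, since all 61224 peaks passed the filter. Its values, counted among the 599, could not change. Numbers of the 68 peaks called moved by over 1.5 times as follows. The smaller table has its own 34 Jak and Stat peaks, of which 16 are at positions of the larger one, so its counts are not over the same 68. Against NKT cells 25 became 7 in the smaller table and 11 with loess. Against T cells 10 became 5 at a mean count of at least 20, a filter that kept 44 of the 68 peaks, and 19 with DESeq2. All 5 called peaks that this filter kept stayed called. Against NK cells 7 became 2 in the smaller table and 15 with loess. Between NK and NKT cells 16 became 6 with RLE, 9 with library totals, 0 in the smaller table and 10 with loess, and between NK and T cells 4 became 2 in the smaller table and 9 with loess. Between NKT and T cells 5 became 18 in a fit of these groups alone, where 54 were tested, and 3 with loess. Numbers of genes became, over promoter peaks alone, 1 against NKT cells, 1 against T cells, 1 between NK and NKT cells and 0 between NKT and T cells. DESeq2 called 4 against T cells, the smaller table called 1 between NK and NKT cells, loess 1 between NK and T cells, and a fit of NKT and T cells alone 3. Relative to chromosome 11, 4 instead of 9 peaks were called against T cells at a mean count of at least 20.

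Leaving out 1 normal library gave 15 to 26 peaks against NKT cells (15 without NKT 2, 16 without NKT 3), 8 to 12 against T cells and 2 to 8 against NK cells (2 without NK 2). It gave 5 to 16 between NK and NKT cells (5 without NKT 2, 9 without NK 1 or NK 3, 10 without NKT 1), 2 to 4 between NK and T cells (2 without any 1 T library) and 3 to 6 between NKT and T cells (3 without any 1 T library or NKT 2). Genes ranged over 2 to 3, 0 to 2 (0 without T 2 or T 3, 1 without T 1), 1 to 2 (1 without NK 1 or NK 3), 2 to 3, 0 to 0 and 1 to 1 in the same order of comparisons. Relative to chromosome 11, the 24 Stat peaks ranged over 8 to 15, 6 to 9 and 1 to 3. The shallow NK libraries limit what can be detected at weak peaks.

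In a check for pairing across normal groups, r was -0.11 to 0.124 for libraries of the same replicate number. For different numbers it was -0.104 to 0.157. These r values nearly cancel over the 3 libraries of a group, as those of deviations from group means do. They are thus no measure of how alike whole libraries are. With 3 libraries per group, these values cannot decide whether the numbers pair libraries. A replicate block was fitted to the normal libraries alone, without the lymphomas. Of 51 peaks tested, that fit called 15 between NK and NKT cells and 5 between NK and T cells. Between NKT and T cells it called 9 instead of 5. The numbers of genes were 3, 0 and 1. Since the lymphomas were left out as well, the part of the block itself in these counts was not tested.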
